A study of Mus musculus with 16 samples.

Results

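Primary mouse hepatocytes carrying a floxed Ssu72 gene were compared after infection with Ad-Cre, an adenovirus that delivers Cre recombinase and removes Ssu72, or with Ad-Luc, an adenovirus that delivers luciferase and served as the wild-type control. The series holds 16 RNA-Seq samples of 3 cell types, of which 6 are hepatocytes, with 3 Ad-Luc and 3 Ad-Cre samples. Every row of the hepatocyte gene table was taken, 23996 genes in all, and the Ad-Cre value was set over the Ad-Luc value. The mice were C57BL/6 and 6 weeks old by the labels, and both groups carry the floxed allele, were isolated by collagenase perfusion, cultured with dexamethasone and exposed to an adenovirus. The deletion removes exon 1 of Ssu72, it arises in culture in whichever cells take up the virus, and the sources do not say whether the 3 samples of a group are separate animals or cultures. The table gives 1 FPKM per gene and group, a fragment count corrected for the length of the transcript and the size of the library, so that levels may be compared between genes. No value per sample was used, and therefore no SD, test or p-value stands beside any ratio here. The read depth of the samples is unknown.

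Ssu72 is a phosphatase that removes phosphate groups from the C-terminal domain (CTD) of the largest subunit of RNA polymerase II (Pol II), the tail whose phosphorylation changes as the polymerase starts, elongates and terminates a transcript. In yeast it is a part of the cleavage and polyadenylation machinery that forms the 3' ends of mRNAs. Hepatocytes are the main epithelial cells of the liver. They secrete most plasma proteins, make bile acids, produce glucose and ketone bodies, dispose of ammonia and modify foreign compounds, and a network of liver-enriched transcription factors such as Hnf4a maintains these genes. In culture, hepatocytes gradually lose this expression and take up cytoskeletal and matrix genes.

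Ssu72 (chr4:155704815-155733873 on mm10) itself lay at 26 and 5.12 FPKM (log2 ratio -2.34), where, as in all pairs of values below, the Ad-Luc level comes first and the log2 ratio is that of Ad-Cre over Ad-Luc. Reads from the exons that the deletion leaves in place still count towards the Ad-Cre value. Among the defining markers of hepatocytes, Alb, which encodes albumin, stood at 5207 and 4647 FPKM, Ttr, which encodes the thyroid hormone and retinol carrier transthyretin, at 96.9 and 32.6 FPKM, and Apoa1, the main protein of high-density lipoprotein, at 247 and 113 FPKM. All of them were expressed in both groups, and Ttr and Apoa1 were already among the lower genes (log2 ratio -1.57 and -1.13) while Alb was not (-0.16). Of 14 Kupffer cell and macrophage markers, 3 reached a mean of 1 FPKM and none of them passed 1.5-fold. Their summed level was 15.2 FPKM in Ad-Luc and 13.9 FPKM in Ad-Cre hepatocytes, and the defining Kupffer cell genes Clec4f (0.0150 and 0.0127 FPKM), Timd4 and Vsig4 were at or near 0 in both groups. The 13 sinusoidal endothelial markers summed to 31.5 and 43.5 FPKM, and Pecam1 (2.94 and 4.63 FPKM) and Stab1 (4.61 and 7.67 FPKM) were higher by the 1.5-fold rule. The 12 stellate cell and fibroblast markers summed to 15.5 and 18.5 FPKM, with the defining genes Pdgfrb (0.128 and 0.129 FPKM), Des (0.0691 and 0.0838 FPKM) and Lrat (0.0155 and 0.0161 FPKM) near 0. Of 5 measured members 1 was higher, the smooth muscle actin Acta2 (0.978 and 2.75 FPKM), and none was lower. Acta2 reached a mean of 1 FPKM only through its Ad-Cre level. No neutrophil or erythroid marker reached 1 FPKM. These sums are small beside the liver transcripts, and their part in the differences below was not tested. In bulk samples, fewer cells of a type and less RNA per cell cannot be told apart.

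A mean of at least 1 FPKM over both groups was reached by 11790 genes, 49.1% of the table, and a ratio of at least 1.5 in either direction was called higher or lower. By this rule 672 genes were higher (5.70% of the 11790) and 671 were lower (5.69%) in Ad-Cre hepatocytes. Of the higher genes 183 lay below 1 FPKM in Ad-Luc hepatocytes and so entered only through their Ad-Cre level, and 90 of the lower genes lay below 1 FPKM in Ad-Cre hepatocytes. At 2-fold, counts were 288 higher (2.44%) and 267 lower (2.26%). The median log2 ratio was 0.02, the 25th and 75th percentiles were -0.15 and 0.19, and the range from the 5th to the 95th percentile ran from -0.63 to 0.61. A gene listed at 0 in a group counted as past the fold with no ratio given, which applied to 34 genes at 0 in Ad-Luc and 23 at 0 in Ad-Cre hepatocytes. With no spread between samples at hand, how many of these genes would differ between repeats of the same group is not known. The counts over all genes are therefore the background for each group of genes described next.

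**Figure D1:**
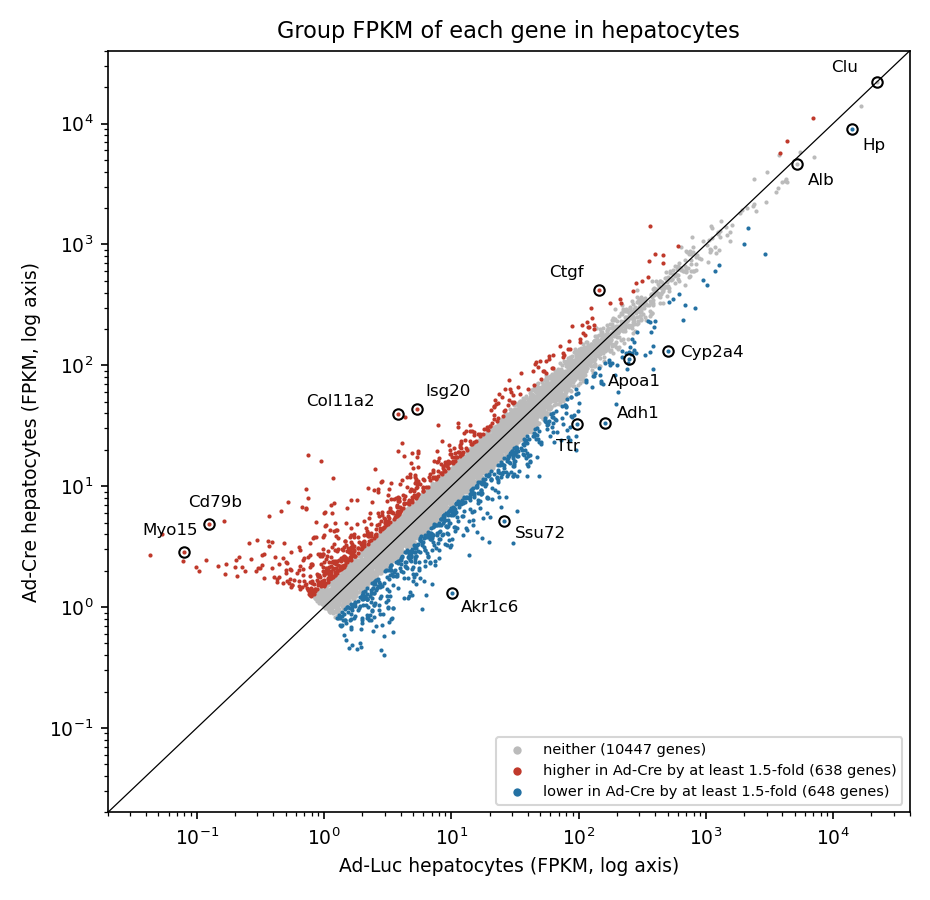
Each point is a gene of at least 1 FPKM, with its group FPKM in Ad-Luc hepatocytes on the horizontal and in Ad-Cre hepatocytes on the vertical axis, both logarithmic. Red and blue points are higher and lower by at least 1.5-fold, the line marks equal values, named genes are circled, and the 34 and 23 genes at 0 in a group are left out. Ssu72 lies among the blue points at 26.0 and 5.12 FPKM, and Clu, the gene with the highest level, lies close to the line.

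The most abundant transcripts encoded secreted proteins. Clu, which encodes the extracellular chaperone clusterin, headed the table at 22144 and 22082 FPKM, and Hpx, the haem carrier hemopexin, followed at 16607 and 14000.3 FPKM. Hp, which encodes the haemoglobin scavenger haptoglobin, was the most abundant gene past the fold at 14009 and 9001 FPKM (log2 ratio -0.64). Among the other most abundant lower genes were Hamp, which encodes the iron hormone hepcidin (2137 and 1374 FPKM), Fgb, the fibrinogen beta chain (2000.3 and 1010.5 FPKM), Serpina7, the thyroxine-binding globulin (1182 and 602 FPKM), and Ahsg, the calcium-binding plasma protein fetuin-A (1019 and 459 FPKM). Hp and Hamp lay close to the fold and were no longer past it when ratios were centred on the ribosomal protein genes. The most abundant higher genes, apart from small nucleolar RNAs, were of another kind, with Vim, the intermediate filament protein vimentin, at 604 and 966 FPKM, the annexin Anxa3 at 459 and 697 FPKM, the matricellular protein gene Cyr61 at 358 and 727 FPKM, the tropomyosin Tpm1 at 354 and 541 FPKM and the tight junction protein gene Cldn3 at 314 and 497 FPKM.

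Among genes of at least 10 FPKM, small RNAs left aside, the lowest ratio was that of H2-Q8, a non-classical MHC class I gene with near-identical neighbours among which reads can be split, at 30.6 and 3.39 FPKM (log2 ratio -3.18). It was followed by the aldehyde oxidase Aox3 (19.8 and 3.44 FPKM, log2 ratio -2.52), Ssu72 and the alcohol dehydrogenase Adh1 (160.3 and 33.6 FPKM, log2 ratio -2.26). Cdo1, the cysteine dioxygenase, stood at 48.5 and 12.2 FPKM. Akr1c6, a steroid-reducing enzyme of lower mean level, stood at 10.2 and 1.30 FPKM (log2 ratio -2.97). In the other direction the largest ratios were those of Col11a2, a cartilage collagen chain, at 3.81 and 39.2 FPKM (log2 ratio 3.36), and Isg20, an interferon-induced exonuclease, at 5.42 and 43.6 FPKM (log2 ratio 3.01). Crybb3, a lens crystallin, went with them at 4.12 and 22.7 FPKM, as did the carbonic anhydrase Car15 at 3.83 and 19.6 FPKM and the adaptor gene Dok3 at 4.28 and 17.7 FPKM. The highest ratios thus belonged to genes of modest Ad-Luc level, and most of the lowest to liver enzymes.

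Genes of plasma proteins were lower across several families. Over the 7 lists of secreted proteins, 65 of 128 measured genes were lower and 5 were higher, with a median log2 ratio of -0.64 beside 0.02 for all genes. These genes made up 16.1% of the summed FPKM of the table in Ad-Luc and 12.5% in Ad-Cre hepatocytes. Of 18 apolipoprotein and lipoprotein genes 12 were lower and none was higher, with a median of -0.88. Apom, a carrier of sphingosine-1-phosphate, stood at 20.1 and 5.58 FPKM (log2 ratio -1.85). Apoa5, an activator of triglyceride clearance, stood at 19.1 and 6.03 FPKM (log2 ratio -1.67), and the cholesterol-esterifying enzyme gene Lcat at 30.5 and 12.1 FPKM (log2 ratio -1.34). Apoc1 (282 and 128 FPKM), Apoc4 (34.3 and 13.4 FPKM) and Apof (75.5 and 32.6 FPKM) were lower too, whereas Apob, the backbone of very low-density lipoprotein, was nearly level at 316 and 299.9 FPKM and Apoe at 4244 and 3473 FPKM. Mttp, which loads lipid onto Apob, stood at 95.9 and 58 FPKM.

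The 3 fibrinogen chain genes, which lie side by side and form the clot protein, shared a direction. Fga stood at 362 and 128 FPKM (log2 ratio -1.49), Fgg at 386 and 144 FPKM (log2 ratio -1.42) and Fgb at 2000.3 and 1010.5 FPKM (log2 ratio -0.99). Over 32 measured genes of coagulation and fibrinolysis 15 were lower and 4 were higher, with a median of -0.58. Lower members included the plasmin inhibitor gene Serpinf2 (94.7 and 26 FPKM), Plg, the plasmin precursor (27.2 and 12.2 FPKM), and F9, the clotting factor IX (31.8 and 16.1 FPKM). The 4 higher members were F3, the tissue factor that starts coagulation (28.5 and 75.3 FPKM), the thrombin receptor Thbd (12.5 and 27.4 FPKM), the urokinase receptor Plaur (88.5 and 211 FPKM) and urokinase itself, Plau (2.53 and 3.95 FPKM). These act at cell surfaces, while the lower members named circulate in plasma.

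Complement genes gave 13 lower and none higher of 22 measured, with a median of -0.66. The lectin Mbl2 stood at 273 and 133 FPKM (log2 ratio -1.04) and the terminal component Hc at 16.2 and 7.61 FPKM (log2 ratio -1.09). The central component C3 was not past the fold at 2963 and 2239.9 FPKM (log2 ratio -0.40). Acute phase genes, which the liver induces in inflammation, gave 14 lower and none higher of 27, with a median of -0.64. Fgl1, a fibrinogen-like protein, stood at 334 and 121 FPKM (log2 ratio -1.46) and the pentraxin Apcs at 22 and 9.22 FPKM (log2 ratio -1.25). The serum amyloid genes diverged, with Saa4 at 40.02 and 14.7 FPKM, Saa1 at 151 and 142 FPKM and Saa3 at 4215 and 3348 FPKM. Of 17 plasma carriers 7 were lower and none was higher, including the corticosteroid carrier gene Serpina6 (2.36 and 0.778 FPKM) and the major urinary protein gene Mup3 (1267 and 672 FPKM) and the binding protein Fetub (148 and 82.5 FPKM). Near-identical copies within the Mup, Saa, Serpina1 and Serpina3 families can share reads, so that the values of single members there are uncertain. Serpina1a stood at 57.8 and 32.9 FPKM and Serpina1d at 62.9 and 64.4 FPKM.

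Liver-enriched transcription factors were lower for some members and level for others. Of 23 measured, 9 were lower and none was higher, with a median of -0.31. The lower ones included Hnf4a, the nuclear receptor at the centre of the hepatocyte network, at 54.2 and 35.5 FPKM (log2 ratio -0.61), and Creb3l3, a membrane-bound factor of lipid metabolism, at 41.4 and 15.9 FPKM (log2 ratio -1.38). Nr1h4, the bile acid receptor FXR, stood at 31.1 and 16.1 FPKM (log2 ratio -0.94), and Nr0b2, the repressor SHP, at 36.6 and 18.6 FPKM (log2 ratio -0.98). Foxa3, Nr5a2, Onecut1, Prox1 and Dbp made up the rest. In contrast, the pioneer factors Foxa1 (22.8 and 22.4 FPKM) and Foxa2 (45.9 and 48.9 FPKM) and the bZIP factor Cebpb (145 and 144 FPKM) were nearly level. Hnf4a lay close to the fold and was no longer past it when ratios were centred on the ribosomal protein or the housekeeping genes. Other nuclear receptors gave 2 lower, among them Nr1h4, and none higher of 26.

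More cytochrome P450 genes, which oxidise drugs, steroids and fatty acids, were lower than higher. Of 35 measured members of families 1 to 4, 19 were lower, 3 were higher and 13 were not past the fold, with a median of -0.87. The coumarin and testosterone hydroxylases Cyp2a5 (661 and 235 FPKM, log2 ratio -1.49) and Cyp2a4 (500.2 and 131 FPKM, log2 ratio -1.94) were the most abundant members. Cyp2d10 stood at 24.6 and 6.67 FPKM, the caffeine-oxidising Cyp1a2 at 15 and 6.28 FPKM and Cyp3a11, the main drug-metabolising form, at 2.41 and 0.637 FPKM. The 3 higher members were Cyp2c55 (0.539 and 2.06 FPKM), Cyp2b10 (5.33 and 8.43 FPKM) and Cyp4b1 (3.13 and 4.98 FPKM). Members of the 2a, 2c and 2d subfamilies are close in sequence and can share reads.

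Enzymes that couple glutathione, glucuronic acid or sulfate to small molecules gave 16 lower and none higher of 35, with a median of -0.58. Gstm1 stood at 943 and 508 FPKM (log2 ratio -0.89), Ugt2b5 at 234 and 127 FPKM (log2 ratio -0.89) and the glucuronosyltransferase Ugt1a6b at 88.4 and 37.7 FPKM (log2 ratio -1.23). The exons shared by the Ugt1a genes make their values uncertain. Alcohol, aldehyde, retinol and aldo-keto enzymes gave 14 lower and none higher of 41, with a median of -0.31. Adh1, Akr1c6 and Aox3 headed them, together with Uox, the urate oxidase (5.88 and 0.968 FPKM), and Hsd17b13, a lipid droplet enzyme (81.5 and 28.9 FPKM). Other members of the same families were level, among them Aldh2, which clears acetaldehyde (214 and 204 FPKM), and Adh5 (49.2 and 46.1 FPKM). Carboxylesterases gave 4 lower and none higher of 11, with Ces2e at 264 and 126 FPKM and Ces1d at 47 and 17.4 FPKM. Phyhd1, a dioxygenase gene, stood at 23.1 and 13.1 FPKM (log2 ratio -0.82).

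Genes of bile acid synthesis and transport gave 12 lower and none higher of 24, with a median of -0.50. Slc10a1, which takes bile acids up from blood, stood at 1.94 and 0.654 FPKM (log2 ratio -1.57). Baat, which joins them to taurine, stood at 4.97 and 1.88 FPKM (log2 ratio -1.40), and Abcb4, which exports phospholipid into bile, at 50.7 and 23.4 FPKM (log2 ratio -1.12). The exporters Abcc2 (232 and 283 FPKM) and Abcc3 (262 and 247 FPKM) and the acidic pathway enzyme Cyp27a1 (62 and 61.8 FPKM) were not past the fold.

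In lipid metabolism, more genes of fatty acid oxidation than of sterol synthesis were past the fold. Fatty acid oxidation and ketogenesis gave 10 lower and none higher of 39 (median -0.37). The fatty acid binding protein gene Fabp1 stood at 1.96 and 0.470 FPKM (log2 ratio -2.06). The carnitine transferase Cpt1a was not past the fold at 58.6 and 47 FPKM. Fatty acid synthesis gave 5 lower and none higher of 23, with the triglyceride-forming Dgat2 at 256 and 143 FPKM (log2 ratio -0.84) and Fasn at 25.3 and 32.6 FPKM. Sterol synthesis gave 1 lower, Acat2 (14.3 and 9.28 FPKM, log2 ratio -0.62), and none higher of 25. Centring on the ribosomal protein genes took Acat2 back inside the fold. The squalene epoxidase Sqle lay at 27.6 and 30.9 FPKM and Srebf2, a regulator of the pathway, at 39.2 and 44.2 FPKM. Whether these lists differ was not tested.

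Glucose and amino acid genes gave a mixed picture. Gluconeogenesis and glycogen genes gave 11 lower and 1 higher of 18 (median -0.62), including the gluconeogenic phosphatase Fbp1 (21 and 7.81 FPKM, log2 ratio -1.42), the glucose transporter Slc2a2 (2.78 and 1.23 FPKM, log2 ratio -1.18) and the glucagon receptor Gcgr (45 and 26.2 FPKM, log2 ratio -0.78). Irs2, an insulin receptor substrate, was the higher member at 2.57 and 4.43 FPKM. Of 21 glycolytic genes 2 were lower, among them Aldoc, and none was higher, and Gapdh (456 and 401 FPKM), Pkm (308 and 332 FPKM) and Aldoa (224 and 221 FPKM) were nearly level. Urea cycle and amino acid genes gave 15 lower and 2 higher of 48 (median -0.28). Cps1, the entry enzyme of the urea cycle, stood at 12.3 and 3.94 FPKM (log2 ratio -1.65) and the tryptophan dioxygenase Tdo2 at 82.1 and 25.6 FPKM (log2 ratio -1.68). The urea cycle enzyme Asl was level at 65.8 and 65.5 FPKM. The higher members were Cth, which makes cysteine (11.7 and 21.2 FPKM), and Prodh, which degrades proline (11.5 and 19.3 FPKM).

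Among genes restricted to a zone of the liver lobule, some were lower on either side. Of 14 measured pericentral genes 3 were lower, including Cyp1a2, and of 14 periportal genes 5 were lower, including Cps1 and Cyp2f2 (14.4 and 6.06 FPKM), with none higher in either list. The glutamine synthetase Glul, confined to the hepatocytes around the central vein, was level at 17.9 and 17.6 FPKM. Among iron and haem genes 4 were lower and 1 was higher of 29. Hamp stood at 2137 and 1374 FPKM (log2 ratio -0.64), the BMP co-receptor gene Hfe2, which acts upstream of Hamp, at 6.19 and 2.17 FPKM (log2 ratio -1.52) and Id1, a target of the same BMP signal, at 259 and 125 FPKM (log2 ratio -1.05), while the ligand gene Bmp6 stood at 8.43 and 12.7 FPKM (log2 ratio 0.59). Bmp6 lay at the edge of the fold and did not pass it with a pseudocount of 1 or 0.1 or when ratios were centred on the median gene. Hamp did not pass it when ratios were centred on the ribosomal protein genes. The ferritins Fth1 (1616 and 1445 FPKM) and Ftl1 (2379 and 2139 FPKM) were not past the fold.

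**Figure D2:**
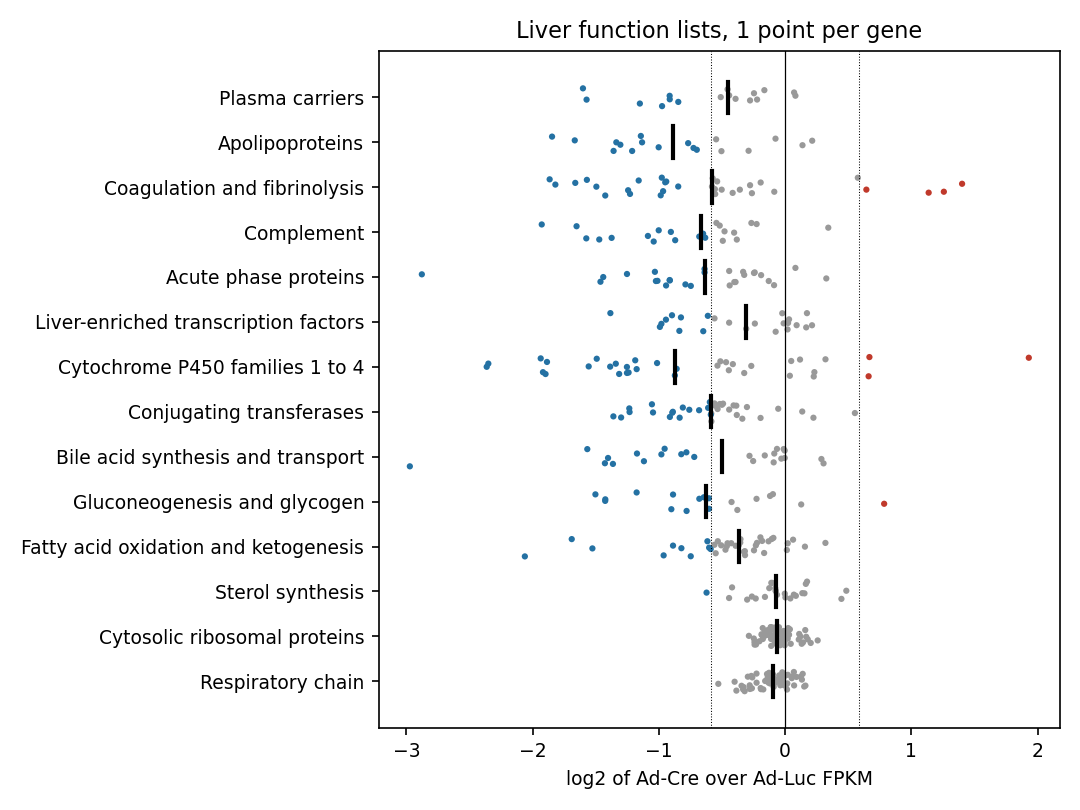
Each point is a measured gene of the list named at the left, placed by the log2 of its Ad-Cre over its Ad-Luc FPKM, and black bars mark list medians. Dotted lines stand at 1.5-fold, with lower genes in blue and higher genes in red, and vertical scatter within a row has no meaning. Apolipoproteins and cytochrome P450 genes have medians of -0.88 and -0.87, and ribosomal protein genes one of -0.07.

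Genes of the late cell cycle were lower as a group. Of 40 measured genes of G2 phase and mitosis 32 were lower and none was higher, with a median of -0.77 and a range from -1.45 to 0.23. The background share of lower genes is 5.69%. The cyclins Ccnb1 (24.7 and 12 FPKM, log2 ratio -1.04) and Ccnb2 (32.9 and 12 FPKM, log2 ratio -1.45) and their kinase Cdk1 (21.5 and 12.5 FPKM, log2 ratio -0.78) drive entry into mitosis. The ubiquitin-conjugating enzyme Ube2c (41.2 and 18.3 FPKM, log2 ratio -1.17) and the activator Cdc20 (49 and 28.8 FPKM, log2 ratio -0.77) serve the anaphase-promoting complex that ends it. The proliferation marker Mki67 stood at 28.5 and 15.8 FPKM, the topoisomerase Top2a at 29.8 and 18.5 FPKM and Foxm1, a transcription factor that activates this gene group, at 17.3 and 10.4 FPKM. With Ccna2 and Ccnf, centring on the ribosomal protein genes took ratios close to the fold back inside it.

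Genes of DNA replication and the G1/S transition, in contrast, gave no lower and 1 higher gene of 48, with a median of 0.11. The replication clamp Pcna stood at 59.9 and 70.3 FPKM and the helicase subunits Mcm2 at 19.9 and 24.9 FPKM and Mcm7 at 64.8 and 71.6 FPKM. The higher gene was the cyclin Ccnd2 (1.49 and 2.57 FPKM), while Ccnd1 (25.2 and 30.1 FPKM) and Ccne1 (12.4 and 16.8 FPKM) were not past the fold. The levels of the lists were alike, with a median of 14.5 FPKM over the late genes and 14.2 FPKM over the replication genes. The difference between the ratios of the lists was not tested.

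Most promoters of the late genes hold an element known for this gene group, so that its share describes the list and not the ratios. Promoter sequences from RefSeq on GRCm38.p6, the same assembly as the mm10 of the files, were matched by symbol for 8874 of the 11790 genes (75.3%). TTTGAA, the core of the cell cycle homology region (CHR) through which these genes are repressed outside G2 and mitosis, was searched on both strands with matches beginning from position -50 to position 44 relative to the start. It occurred in 22 of 34 late genes with a promoter (64.7%) and in 330 of all 8874 (3.72%). Among all lower genes, which include the lower late genes, the share was 10.8%. Among higher genes it was 1.84% and among replication genes 7.69%. The pentamer CCAAT, bound by NF-Y, lay on either strand between positions -250 and -5 in 27 of the 34 late genes (79.4%) and in 40.8% of all promoters. The last 60 bases before the start are shown for 6 late genes, chosen because the element lies inside this window, 5' to 3' along the gene's own strand and with TTTGAA or its reverse complement in capitals. They are Cdc20 (chr4:118437344-118437403, minus strand), Cdk1 (chr10:69352913-69352972, minus strand), Ccnf (chr17:24251410-24251469, minus strand), Top2a (chr11:99024190-99024249, minus strand), Ube2c (chr2:164769869-164769928, plus strand) and Kif11 (chr19:37376322-37376381, plus strand).
Cdc20: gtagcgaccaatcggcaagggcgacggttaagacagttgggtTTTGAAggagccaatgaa
Cdk1: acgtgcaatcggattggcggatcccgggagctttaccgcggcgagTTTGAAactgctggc
Ccnf: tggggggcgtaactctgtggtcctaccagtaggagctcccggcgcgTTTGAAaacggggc
Top2a: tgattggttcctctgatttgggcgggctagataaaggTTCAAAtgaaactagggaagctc
Ube2c: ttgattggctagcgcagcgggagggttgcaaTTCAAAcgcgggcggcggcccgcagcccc
Kif11: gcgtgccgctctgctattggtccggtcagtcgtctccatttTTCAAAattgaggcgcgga
Counted from the start, the element begins at position -18 in Cdc20, -15 in Cdk1, -14 in Ccnf, -23 in Top2a, -29 in Ube2c and -19 in Kif11, and all 6 genes were lower. Kif11, a mitotic spindle motor, stood at 15.1 and 8.78 FPKM and Ccnf at 20.7 and 13.4 FPKM. A match is a description of the letters and not a binding site, these motifs were chosen after the lists had been seen, and no match in this window says nothing about a factor.

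Immediate early genes, cytoskeletal genes and matrix genes leaned the other way. Immediate early genes, the first to answer growth factors and stress, gave 9 higher and none lower of 24 (median 0.47). Myc stood at 75.1 and 126 FPKM (log2 ratio 0.75), the AP-1 subunit Fosl2 at 12.4 and 19.3 FPKM (log2 ratio 0.64) and Ier2 at 44.4 and 69.2 FPKM (log2 ratio 0.64), while Egr1 was level at 17.5 and 17.3 FPKM and Jun was not past the fold at 47.5 and 64.9 FPKM (log2 ratio 0.45). Targets of the co-activators YAP and TAZ, which answer cell spreading and tension, gave 10 higher and none lower of 23 (median 0.50), a list added after hepatocyte values had been seen. Ctgf stood at 144 and 423 FPKM (log2 ratio 1.56), Cyr61 at 358 and 727 FPKM (log2 ratio 1.02), Ankrd1 at 58.6 and 113 FPKM (log2 ratio 0.95) and Amotl2 at 77.5 and 123 FPKM (log2 ratio 0.66). The hexamer GGAATG, bound by the TEAD factors that partner YAP, occurred on either strand in 7 of 15 of these promoters and in 14.3% of all, with 18.7% of higher and 18.3% of lower genes.

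The actin cytoskeleton list, added at the same stage, gave 14 higher and none lower of 32 (median 0.45). The filamin Flna stood at 213 and 355 FPKM (log2 ratio 0.74) and the actin crosslinker Actn1 at 106 and 215 FPKM (log2 ratio 1.02). The calponin Cnn2 stood at 24.9 and 54.3 FPKM (log2 ratio 1.12), and the beta-actin gene Actb was not past the fold at 786 and 949 FPKM. Matrix genes gave 12 higher and 1 lower of 38 (median 0.38). Higher members such as Col20a1 (0.944 and 16.2 FPKM) and Acta2 lay below 1 FPKM in Ad-Luc hepatocytes. They entered only through their Ad-Cre level. The basement membrane collagens Col4a1 (83.5 and 158 FPKM, log2 ratio 0.92) and Col4a2 (58.4 and 119 FPKM, log2 ratio 1.03) are transcribed from a shared promoter region and had like ratios. Thbs1, an activator of TGF-beta, stood at 46.1 and 106 FPKM, and the smooth muscle actin Acta2 at 0.978 and 2.75 FPKM, while Col1a1 (9.92 and 10.4 FPKM) and the fibronectin gene Fn1 (1307 and 1576 FPKM) were not past the fold. The osteopontin gene Spp1 was the lower member at 264 and 165 FPKM. Markers of other cells lay beside these lists, with 7 of the 8 measured sinusoidal endothelial markers above a ratio of 1 (median log2 ratio 0.50) and 4 of the 5 measured stellate cell markers (median 0.33), and their part in the matrix and cytoskeletal values was not tested.

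Among simple epithelial keratins and junction genes 5 were higher and 3 were lower of 23. Krt19 (11.3 and 33.2 FPKM) and Krt7 (0.528 and 1.59 FPKM), which mark bile duct cells, were higher, and the hepatocyte keratins Krt8 (776 and 1159.7 FPKM, log2 ratio 0.58) and Krt18 (640.4 and 960.5 FPKM, log2 ratio 0.58) lay at the edge of the fold. The claudin gene Cldn15 (0.340 and 2.76 FPKM) was higher too. Krt7 and Cldn15 lay below 1 FPKM in Ad-Luc hepatocytes and so entered only through their Ad-Cre level. The bile duct genes Sox9 (8.17 and 8.09 FPKM) and Epcam (0.435 and 0.682 FPKM) were not past the fold or stayed below 1 FPKM. Spp1, also counted as a bile duct marker, was lower at 264 and 165 FPKM. Of 5 measured bile duct markers 2 were thus higher, of which Krt7 was measured only through its Ad-Cre level, and 1 was lower. The 8 listed summed to 299.8 and 224.2 FPKM. The hepatocyte connexin Gjb1, in contrast, stood at 85.8 and 24 FPKM (log2 ratio -1.84) and Cldn1 at 21 and 9.63 FPKM (log2 ratio -1.12), while Cdh1 was level at 122 and 131 FPKM. The fetal liver gene Afp (30.8 and 14.7 FPKM) was lower. Genes of the fetal and dedifferentiation list therefore stood on both sides, with 6 higher and 3 lower of 20.

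Stress pathways differed from each other in their counts. Targets of ATF4, the factor of the integrated stress response that induces amino acid synthesis and transport, gave 10 higher and none lower of 27 (median 0.50). The serine synthesis genes Phgdh (48.1 and 96.8 FPKM, log2 ratio 1.01) and Psat1 (34.7 and 57.8 FPKM, log2 ratio 0.74) were among them, with the asparagine synthetase Asns (21.7 and 38.9 FPKM, log2 ratio 0.84) and the mitochondrial folate enzyme Mthfd2 (7.90 and 16.3 FPKM, log2 ratio 1.04). The amino acid transporter Slc7a5 stood at 15.1 and 26.3 FPKM. Atf4 itself was level at 205 and 209.6 FPKM and its partner Ddit3 was not past the fold at 18.6 and 22.5 FPKM. The letters TTGCATCA, which ATF4 and C/EBP factors bind as a pair, were found on either strand from position -250 to position 42 in 6 of 26 promoters of the list (23.1%), in 68 of all 8874 (0.766%), in 8 of 434 higher genes and in 5 of 471 lower genes. The bases just upstream of the start are shown for 4 of the 8 higher genes with a match. These carry it at a like distance from the start, but that distance does not set them apart. The higher gene Pdzd7 (1.17 and 2.05 FPKM) carries it at position -106 and is not shown. Among lower genes, Cyp3a11 carries it at position -99 and Slc17a1 at -101. The 4 genes shown were not taken from the list alone, and Sfn is not a member of it. They are Nupr1 (chr7:126625471-126625590, minus strand), Gadd45g (chr13:51846555-51846674, plus strand), Sfn (chr4:133602169-133602288, minus strand) and Atf3 (chr1:191183334-191183453, minus strand), with the match in capitals.
Nupr1: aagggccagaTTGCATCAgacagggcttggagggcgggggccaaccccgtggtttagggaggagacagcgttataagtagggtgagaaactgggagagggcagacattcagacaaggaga
Gadd45g: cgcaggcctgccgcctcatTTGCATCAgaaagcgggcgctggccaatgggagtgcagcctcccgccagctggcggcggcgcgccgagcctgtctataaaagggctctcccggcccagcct
Sfn: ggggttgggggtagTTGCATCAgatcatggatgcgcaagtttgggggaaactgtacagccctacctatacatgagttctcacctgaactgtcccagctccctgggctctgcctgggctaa
Atf3: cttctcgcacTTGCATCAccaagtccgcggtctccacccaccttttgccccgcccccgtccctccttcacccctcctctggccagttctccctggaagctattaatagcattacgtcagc
The chromatin protein gene Nupr1 stood at 7.99 and 17.1 FPKM, the stress gene Gadd45g at 21.8 and 46.3 FPKM, the 14-3-3 protein gene Sfn at 5.37 and 17.4 FPKM and the stress factor Atf3 at 4.72 and 9.19 FPKM. The motif was searched after the lists had been seen.

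Chaperones of the endoplasmic reticulum gave 2 lower, Hsp90b1 (549 and 357 FPKM, log2 ratio -0.62) and the splicing-activated factor Xbp1 (135 and 86 FPKM, log2 ratio -0.65), and none higher of 23, with a median of -0.32. The central chaperone Hspa5 stood at 830.2 and 615 FPKM. Neither Hsp90b1 nor Xbp1 stayed past the fold when ratios were centred on the ribosomal protein genes. None of 21 cytosolic heat shock genes was past the fold. Of 27 targets of p53 only Plk2 (116 and 227 FPKM) and the cell death gene Bbc3 (11.2 and 19.1 FPKM) were higher, and Cdkn1a (74.4 and 85.1 FPKM), Mdm2 (83.7 and 90.3 FPKM) and Bax (226 and 232 FPKM) were nearly level. Targets of NRF2 gave 6 lower and none higher of 31, of which Gstm1, Gstm3, Gsta2 and Gsta4 are glutathione transferases counted above, while the glutathione synthesis genes Gclc (1454 and 1199.9 FPKM) and Gclm (133 and 122 FPKM) and the thioredoxin reductase Txnrd1 (242 and 289 FPKM) were not past the fold.

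**Figure D3:**
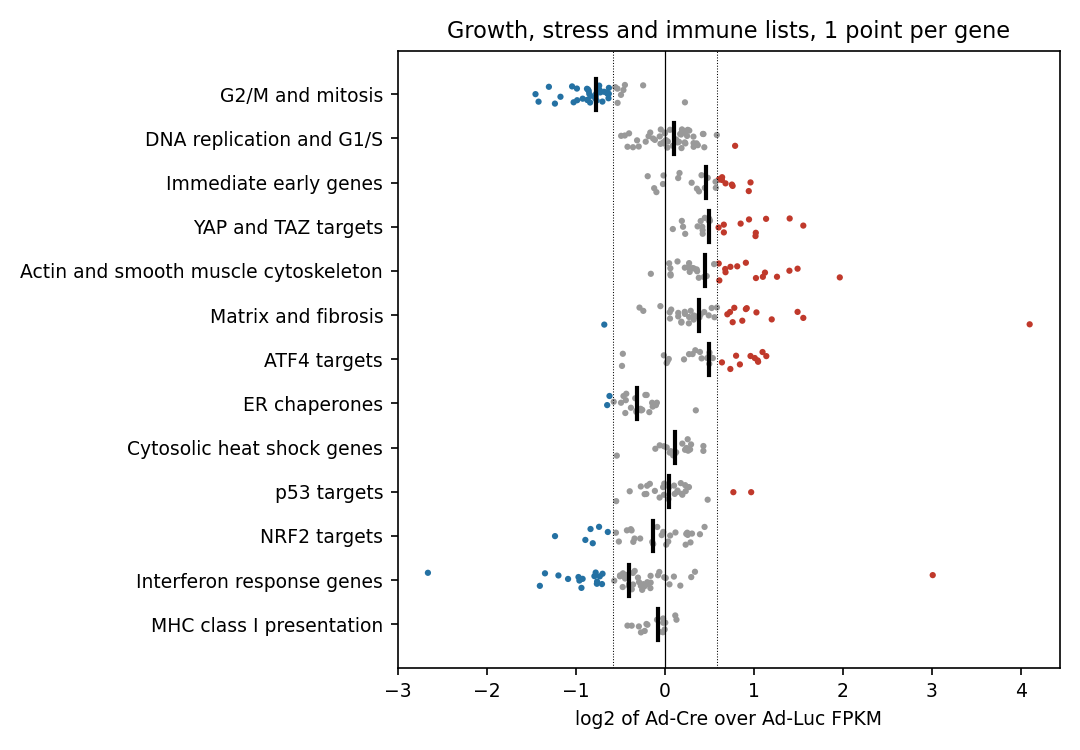
As in the plot of liver function lists, each point is a measured gene placed by its log2 ratio, black bars mark medians and dotted lines stand at 1.5-fold. The 40 genes of G2 and mitosis have a median of -0.77, the 48 genes of replication one of 0.11, and the point at the far right of the matrix row is Col20a1.

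Interferon response genes gave 16 lower and 1 higher of 51, with a median of -0.40. The antiviral GTPase Mx1 stood at 2.79 and 0.441 FPKM (log2 ratio -2.66) and the GTPase Iigp1 at 87.6 and 38.2 FPKM (log2 ratio -1.20). The ubiquitin-like Isg15 stood at 35.1 and 20.7 FPKM (log2 ratio -0.76) and the factor Irf7 at 55.3 and 34.1 FPKM (log2 ratio -0.70). Isg20 was the exception at 5.42 and 43.6 FPKM. The control virus carries no Cre, so that the presence of Cre and the loss of Ssu72 cannot be told apart here. Inflammatory NF-kappaB targets gave 6 lower, among them Cxcl10 (29.6 and 13.2 FPKM), and 2 higher of 26. None of 16 genes of MHC class I presentation was past the fold, with H2-K1 at 1934 and 1909 FPKM and Tap1 at 44.5 and 44.6 FPKM. The lower non-classical class I gene H2-Q8, named above, is not among these 16.

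The general machinery gave few genes past the fold. Ssu72 was the only lower gene of 16 CTD phosphatases and related subunits, none of which was higher, and the CTD phosphatase Ctdp1 lay at 12.1 and 16.1 FPKM. None of 31 CTD kinases and pause factors and none of 13 Pol II subunits was past the fold, with the kinase Cdk9 at 32.2 and 36.2 FPKM and the largest subunit Polr2a at 36.4 and 34.3 FPKM. Of 36 factors of cleavage, polyadenylation and Integrator only Ints5 was higher (17.9 and 27.1 FPKM, log2 ratio 0.60). None of 77 ribosomal protein genes, 57 respiratory chain genes, 31 proteasome genes and 18 housekeeping genes was past the fold in either direction. Their medians lay between -0.10 and 0.02. Taken as 1 group, the machinery lists gave 1 lower and 1 higher of 276 genes (0.362% each), beside 112 lower and 7 higher of 345 in the lists of metabolism.

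Many genes with the largest ratios lie just downstream of another expressed gene. Each gene placed in the GENCODE M21 annotation, 11095 of the 11652 measured genes that are not small RNAs, was checked for a gene of at least 5 FPKM that ends within 10 kb before its start on the same strand. This was the case for 1601 genes (14.4%), for 78 of 592 lower genes (13.2%) and for 146 of 582 higher genes (25.1%). Among the 75 genes higher by at least 4-fold it was the case for 40 (53.3%). The other 3 arrangements gave lower shares for these 4-fold genes, with 8% for an upstream gene on the opposite strand, 13.3% for a downstream gene on the same strand and 12% for a downstream gene on the opposite strand, beside 12.8%, 13.9% and 14.9% of all genes. Of the 75 genes, 57 lay below 1 FPKM in Ad-Luc hepatocytes and so entered only through their Ad-Cre level. The 53.3% therefore rests largely on genes that the minimum let in through the group where they are high. Among genes of at least 1 FPKM in Ad-Luc hepatocytes, an upstream neighbour on the same strand was present for 90 of 439 higher genes (20.5%), 78 of 592 lower genes (13.2%) and 1539 of all 10916 (14.1%).

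**Figure D4:**
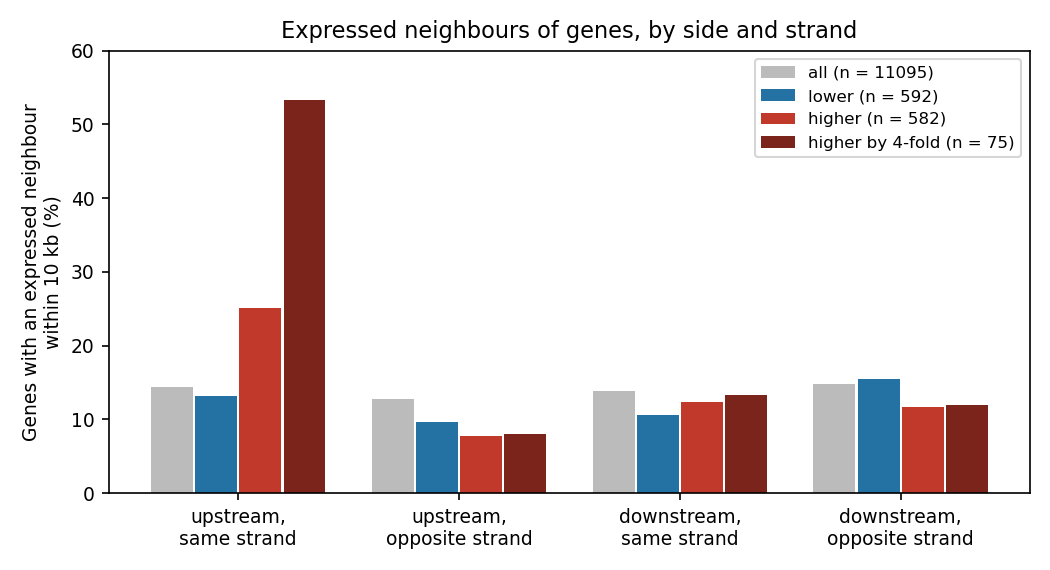
Bars give the percentage of genes with an expressed neighbour (at least 5 FPKM) within 10 kb, by the side and strand of that neighbour, for all placed genes, genes lower or higher by 1.5-fold and genes higher by 4-fold. The bar for 4-fold genes reaches 53.3% for upstream neighbours on the same strand and stays at or below 13.3% elsewhere. Of these 75 genes, 57 lay below 1 FPKM in Ad-Luc hepatocytes and reached the minimum only through their Ad-Cre level.

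The level of a gene entered into this count. In the lowest 25% of mean levels among the placed genes, 94 of 342 genes with such an upstream neighbour were higher (27.5%) and 10.3% of those without it. The mean is that of both groups, so that these shares rest in part on genes that reached 1 FPKM only through their Ad-Cre level. In the next 25% the shares were 8.52% and 3.30%, in the third such group 3.15% and 2.2%, and in the highest group 1.82% and 2.32%. The shares of lower genes differed less, at 7.02% and 8.59% in the lowest group. The upstream genes themselves were mostly level. Of the 146 upstream neighbours of higher genes, 4 were higher and 0 were lower, with a median log2 ratio of 0.06 and a median level of 24.4 FPKM.

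Myo15, a myosin of the inner ear, stood at 0.0790 and 2.87 FPKM (log2 ratio 5.18) and starts 585 bp after Drg2, which was level at 28.4 and 27.9 FPKM. Gzmm, a protease of killer lymphocytes, stood at 1.17 and 11.7 FPKM (log2 ratio 3.31) and starts 622 bp after Cdc34 (99.8 and 101 FPKM). Necab2, a calcium-binding protein of neurons, stood at 0.716 and 9.52 FPKM (log2 ratio 3.73) and starts 463 bp after Osgin1 (751 and 883 FPKM). In each of these pairs the upstream gene was nearly level and the downstream gene far higher. Cnih2, a partner of glutamate receptors, stood at 0.717 and 6.63 FPKM (log2 ratio 3.21) and starts 684 bp after Rab1b (36.9 and 32.4 FPKM). Hapln3, a matrix link protein, starts 2750 bp after Mfge8 and stood at 0.0986 and 2.16 FPKM (log2 ratio 4.45). Among the genes with the highest ratios above 10 FPKM, Col11a2 starts 1038 bp after Rxrb (27.1 and 28.4 FPKM) and Isg20 2215 bp after Aen (44.1 and 48.7 FPKM). The counts of the lists and markers above include such genes. Examples are Col20a1 (4009 bp after Arfgap1), Acta1 (2372 bp after Nup133), Stab1 (2289 bp after Nisch) and Cldn15 (382 bp after Fis1). The lymphocyte receptor genes Lag3 (0.725 and 6.46 FPKM, 1976 bp after Ptms) and Cd79b (0.125 and 4.89 FPKM, log2 ratio 5.29) were also higher. The 10 B and T cell markers summed to 0.363 FPKM in Ad-Luc and 6.17 FPKM in Ad-Cre hepatocytes, and 1 of them, Cd79b, reached a mean of 1 FPKM. Its partner Cd79a stood at 0.232 and 1.21 FPKM, and the B cell gene Ms4a1 and the T cell genes Cd3d and Cd3e were listed at 0 in both groups. The part of such cells in these values was not tested. The FPKM of a gene counts all fragments assigned to it, and which part of the gene they cover was not used here. Why upstream neighbours go with higher values was not tested.

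Hepatocytes were set beside MEFs, embryonic fibroblasts of embryonic day 13.5, and ES cells, both C57BL/6 and compared in the same way after Ad-Cre with their own Ad-Luc controls. MEFs had 3 samples per group and ES cells 2. The control column of the ES cell table carries the letters FS in place of the cell type and was taken as the ES cell control because the labels hold no other such group, which limits the ES cell ratios. In those cells too, Ssu72 was lower, at 22.7 and 3.69 FPKM in MEFs and 99.2 and 44.7 FPKM in ES cells. In MEFs 906 of 12214 genes of at least 1 FPKM were higher (7.42%) and 1048 were lower (8.58%). Genes of G2 and mitosis had a median of -0.77 in hepatocytes, -0.17 in MEFs and 0.01 in ES cells, and 3 of 40 were lower in MEFs. Sterol synthesis genes had medians of -0.07, -1.33 and 0.01, with 1 of 25 lower in hepatocytes and 21 of 25 in MEFs. Matrix genes had medians of 0.38, -0.49 and -0.09, with 12 of 38 higher in hepatocytes and 22 of 52 lower in MEFs. Immediate early genes had medians of 0.47, 0.03 and 0.06. The ATF4 targets had medians of 0.50 in hepatocytes and 0.34 in MEFs, ER chaperones -0.32 and -0.46, and complement genes -0.66 and -0.69. Lists were thus on the same side of 0 in hepatocytes and MEFs for some groups and on opposite sides for others, and whether the medians differ was not tested. In ES cells the medians of the plotted lists ran from -0.09 for matrix genes to 0.29 for acute phase genes.

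**Figure D5:**
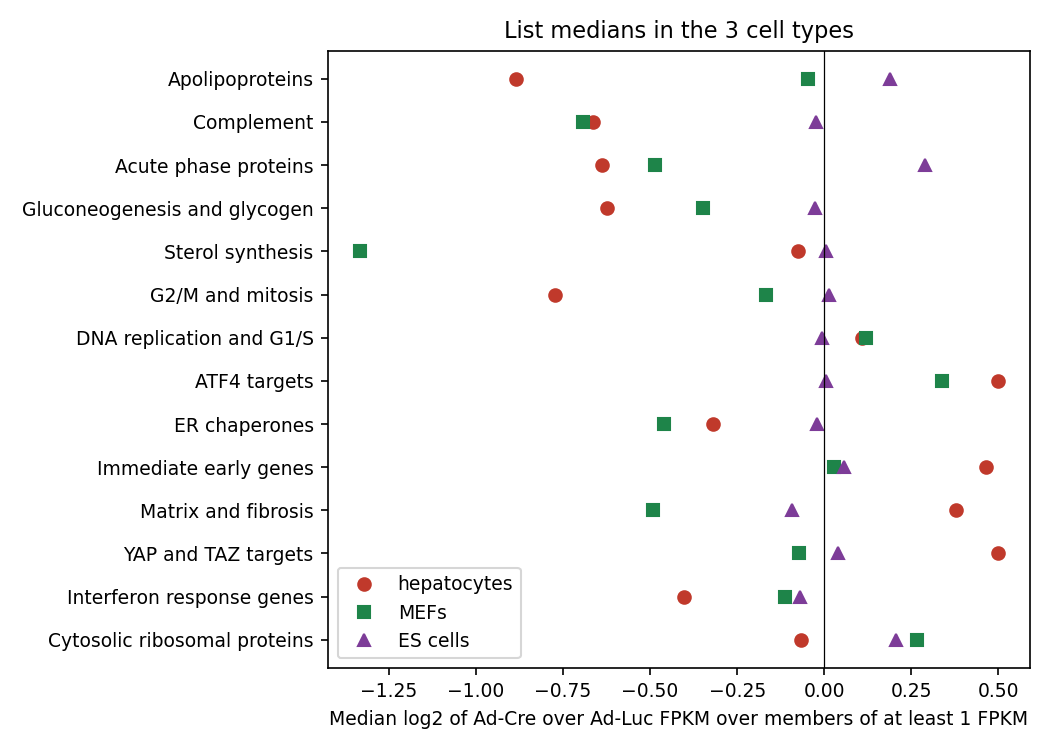
Points give the median log2 ratio of Ad-Cre over Ad-Luc FPKM over the members of each list that reach 1 FPKM in the cell type, for hepatocytes, MEFs and ES cells. Sterol synthesis lies at -1.33 in MEFs and -0.07 in hepatocytes, and G2 and mitosis at -0.17 and -0.77.

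Higher genes with an upstream neighbour were also looked up in the other cell types. Of the 40 such genes past 4-fold in hepatocytes, 30 reached 1 FPKM in MEFs, where 27 were higher and 1 was lower. A gene low in the control can reach this mean through its Ad-Cre level alone. In a count added after seeing the data, 11 of the 30 had at least 1 FPKM in Ad-Luc MEFs, of which 8 were higher and 1 was lower. In ES cells 20 reached 1 FPKM, of which 8 were higher and none was lower, with a median log2 ratio of 0.33, beside 2.02% of 11909 genes higher and 0.722% lower in that cell type. Of the 16 with at least 1 FPKM in Ad-Luc ES cells, 4 were higher. As examples above that ES cell median, Gzmm stood at 0.271 and 5.36 FPKM in MEFs and 1.27 and 6.61 FPKM in ES cells, and Col11a2 at 3.51 and 25.5 FPKM and 0.631 and 3.86 FPKM. Acta2 went the other way between cell types, at 0.978 and 2.75 FPKM in hepatocytes and 516 and 318 FPKM in MEFs.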

How the data were processed

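RNA-Seq of stranded total RNA was mapped by the study to mm10 and summarised with Cuffdiff. The submitters' processing notes name TopHat2 2.0.13, Cuffdiff 2.2.0, CASAVA, DESeq and edgeR. The deposited tables, made by the authors, give FPKM per gene as 1 value for each group over its samples, which is printed here as the authors' value with no SD or n. The tables also hold the authors' own log2 fold changes, test statistics, p-values, q-values and significance calls, which were not used, and a status column used as an alternative filter.

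The Ad-Cre FPKM was divided by the Ad-Luc FPKM without pseudocount for genes of a mean of at least 1 FPKM, and ratios of at least 1.5 and 2 were counted (Python 3.11.15, pandas 2.3.3, numpy 2.4.6, matplotlib 3.10.9). The counting was tested on simulated data. FPKM values are scaled to each library, so that a shift shared by all genes would not be seen. Short transcripts have unstable FPKM, and snoRNAs lie within introns of their host genes, so that their values are uncertain.

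The cells and the 58 gene lists were chosen with earlier results of these data known. The lists of YAP and TAZ targets and of the actin cytoskeleton, the exclusion of small RNAs, the promoter motifs and the sides of neighbours were added after the hepatocyte values had been seen. Genes were named if they are Ssu72, a hepatocyte gene the study names, among the 15 of highest level, among the 10 with the largest ratios in each direction at 10 FPKM or more, among the 10 most abundant past 1.5-fold in each direction, list members of at least 10 FPKM (or the 4 highest where fewer reach it), cell type markers or members of a count of 5 or fewer. Other genes named, including list members of lower level, examples of neighbours and promoters shown, were chosen after their values were seen. Neighbours came from GENCODE M21 and promoters from RefSeq (GRCm38.p6), where a gene with several starts counted if any promoter held the motif. In MEFs, Rsad2 and Pold2 were set aside because their entries are at odds within that table. Some genes are not reported here.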

Additional observations from a re-analysis of the deposited data

How the results depend on the processing

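At a minimum mean of 10 FPKM, 198 genes were at least 1.5-fold higher and 296 lower, and 75 and 116 at 2-fold. With no minimum level the counts were 3513 and 1925 at 1.5-fold, and 2462 and 1167 at 2-fold. The status OK in the authors' table, used in place of the 1 FPKM minimum, kept 13013 genes, some of them below that level. Of these, 1088 were higher at 1.5-fold and 540 at 2-fold, and the counts of lower genes stayed within 1.5 times. Counts also stayed within 1.5 times with a minimum of 0.5 FPKM, pseudocounts of 1 or 0.1, ratios centred on the median gene, on ribosomal protein or on housekeeping genes, protein-coding genes only, and without miRNA, snoRNA and snRNA genes, an alternative added after seeing the data. The reference ratios were small, with medians of 0.02 for all genes, -0.07 for ribosomal protein genes and -0.03 for housekeeping genes. No called list median reversed its direction under these alternatives. Named genes were recomputed only with the pseudocounts and the centrings, which cannot reverse the direction of a gene past the fold. List medians near the fold did cross it. The Serpina1 and Serpina3 clusters came back inside it in 7 alternatives (median log2 ratio from -0.58 to -0.31), gluconeogenesis and glycogen genes with a pseudocount of 1 and centred on ribosomal protein genes (-0.56 in both), and acute phase genes under that centring (-0.57). Conjugating transferases (-0.59 to -0.60), bile acid genes (-0.72 to -0.78) and periportal genes (-0.59) went past it with a minimum of 0.5 FPKM, with none and with status OK, the transferases and coagulation genes (-0.60) when centred on the median gene, and carboxylesterases at a minimum of 10 FPKM. Centring on ribosomal protein genes took 21 named genes back inside the fold, a pseudocount of 1 took back 9, and a pseudocount of 0.1 took back 2. No paired analysis was possible because the tables give only group values, and for the same reason no replicate could be left out and no spread between samples was available. The depth of each sample is unknown, so that ratios of genes near 1 FPKM are the least certain.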

Other observations

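Small RNA genes were past the fold more often than other classes. Of 138 measured small RNA genes, 90 are miRNA genes, of which 38 were higher and 31 lower, and 45 are snoRNA genes, of which 12 were higher and 10 lower. These shares, 42.2% and 34.4% for miRNA genes, stand beside 5.27% and 5.33% for protein-coding genes. Their part in the all-gene counts is small, since 621 higher and 629 lower genes were left without miRNA, snoRNA and snRNA genes. Snord96a (7002 and 11159 FPKM) and Snord33 (4314 and 7180.2 FPKM) were among the most abundant entries of all.

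Ratios were wider among genes of low level. In 4 equal groups by mean level without small RNAs, from the lowest to the highest, 12.5%, 4.12%, 2.30% and 2.37% of genes were higher by 1.5-fold, and 8.48%, 5.12%, 3.84% and 4.15% were lower. The shares at low level rest in part on genes that reached 1 FPKM only through the group where they are high. By the length of the locus, 7.48% of the shortest 25% and 4.16% of the longest 25% of protein-coding genes were higher, and 6.42% and 4.05% were lower.

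Circadian clock genes gave 3 lower, among them Dbp and Hlf, and none higher of 17, with a median log2 ratio of -0.02. Dbp, an output factor of the clock that is expressed in liver, stood at 3.59 and 2.01 FPKM, while the core clock genes Arntl (2.83 and 3.38 FPKM) and Per2 (8.19 and 8.05 FPKM) were not past the fold. Targets of glucocorticoids, which the medium contained, gave 2 lower, Tdo2 and Igfbp1, and 1 higher, the kinase gene Sgk1 (14.7 and 28.9 FPKM), of 18, and Fkbp5 stood at 7.19 and 6.29 FPKM and Tsc22d3 at 4.59 and 5.41 FPKM. Genes of the insulin-like growth factor axis gave 3 lower, Igfbp1, Igfbp4 and Igfals, and 1 higher, Igfbp3 (7.23 and 13 FPKM), of 12. Of 8 genes with female-biased liver expression, 4 were lower, 1 was higher and 3 were not past the fold (median -0.83), and of 14 male-biased genes, 6 were lower, none was higher and 8 were not past the fold (median -0.45).

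The TATA box letters TATAAA lay between positions -45 and -20 on either strand in 7.43% of lower, 4.84% of higher and 1.94% of all genes with a promoter, and the AP-1 letters TGACTCA, searched on both strands, in 7.64%, 7.37% and 4.56%. These shares are descriptions of sequence, and no test was made of them.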
